A study of Mus musculus with 3 samples.

Results

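The collagen genes were read on 3 two-colour Agilent arrays of mouse dorsal cortex at postnatal day 4. Members are all non-control probes whose gene symbol has the form Col, a number, a, and a number, such as Col1a1. The rule found 67 probes for 44 genes, out of 55681 non-control probes that carry 35468 gene names. Each array held RNA of 1 Brpf1-deficient pup in Cy5 and of 1 wild-type pup in Cy3. The labels number these pairs 1 to 3, and no array had the dyes swapped. Brpf1 encodes a scaffold of histone acetyltransferase complexes. The allele, any Cre driver, the strain, the sex and the litters of the pups are not stated in the labels, and the pups received no treatment.

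Collagens are secreted proteins whose chains wind around each other into a stiff helix. Fibrillar collagens line up into the cables of skin, bone, cartilage and the meninges. Type IV collagens form the sheet-like network of basement membranes, which in the brain lie under the pia and around blood vessels. The fibril-associated collagens, called FACIT, sit on the surface of fibrils, and type VI chains build beaded filaments around cells. Other members form short-chain networks, anchoring fibrils or proteins that span the cell membrane. In the developing cortex most of this matrix is made by meningeal fibroblasts, vessel walls and endothelium, and a few members such as Col25a1 are made by neurons.

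On each array 57.9% to 58.2% of 59305 spots stood well above background in Cy5 and 59.9% to 61.0% in Cy3, and 0 were saturated. The ratio used throughout is the log2 of Cy5 over Cy3, so that a positive ratio means more signal in the channel labelled Brpf1-deficient. Brpf1 itself had ratios of 0.625, 0.73 and 0.96 on arrays 1 to 3, which is brighter in the channel labelled Brpf1-deficient on all 3 arrays. The mean was 0.77 ± 0.17 (SD, n = 3; limma, adjusted p = 0.00447). The sign of the ratio in the authors' deposited table is the opposite, but the direction of that table is not stated. The genotype behind each direction is not settled, and dye and genotype cannot be told apart without a dye swap. All directions below are those of the channels as labelled. The labels do not say whether the pairs came from separate litters, so the p-values measure the spread between these 3 pairs.

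Of the 44 collagen genes, 38 stood well above background on 2 or more arrays in either channel and were tested. The 6 others were Col6a6, Col10a1, Col13a1, Col15a1, Col17a1 and Col28a1. The adjusted p fell under 0.05 for 7 of the 38 genes, or 18.4%, against 17.1% of all 23232 genes tested. Col2a1, Col6a4, Col24a1, Col9a2 and Col4a3 were brighter in Cy5, and Col11a1 and Col14a1 were brighter in Cy3. In either direction together the family was thus called about as often as genes in general. The 5 genes brighter in Cy5 are 13.2% of the 38, against 7.97% of all genes, and the 2 brighter in Cy3 are 5.26%, against 9.16%. These differences are a few genes each and were not tested. The median ratio of the 38 genes was -0.05, against -0.01 for all genes. When each array was centred on its median in place of loess, it was 0.02 for the collagens and 0.09 for all genes. Individual ratios lay between -0.44 and 0.60, and the median size was 0.16, against 0.14 for all genes. The sign was the same on all 3 arrays for 20 of the 38 collagens and for 13811 of the 23232 genes. Channel values of the 3 arrays did not overlap for 14 of the 38 collagens, or 36.8%, against 36.1% of all genes.

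**Figure D1:**
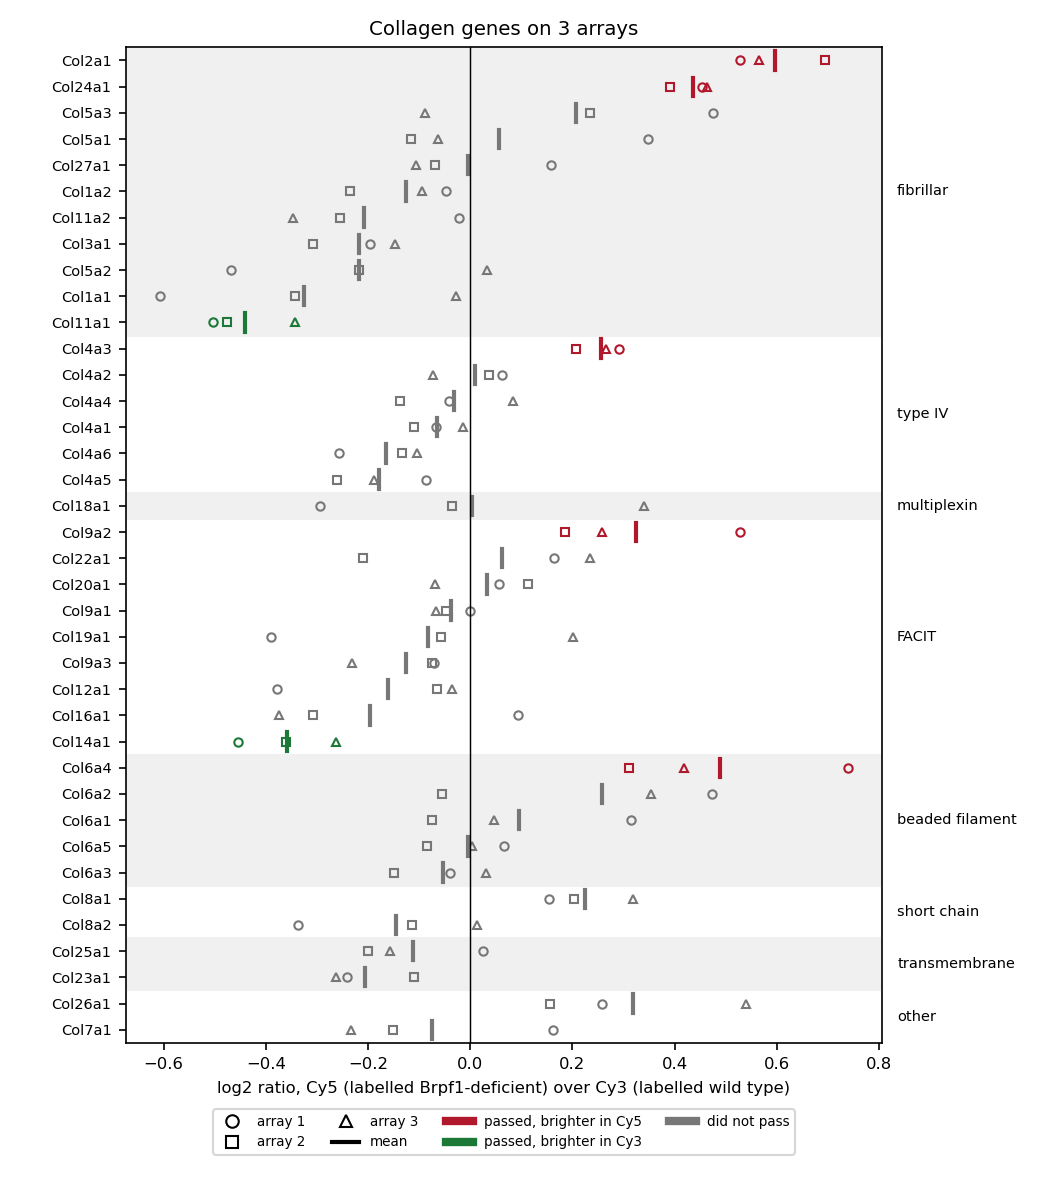
Log2 ratio of Cy5 (labelled Brpf1-deficient) over Cy3 (labelled wild type) on the horizontal axis for the 38 collagen genes tested, in rows grouped by class, with 1 symbol per array and a bar at the mean. Red marks genes that passed brighter in Cy5, green those that passed brighter in Cy3, and grey the 31 that did not pass. The 7 genes that passed are spread over the fibrillar, type IV, FACIT and beaded filament classes.

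Among the 11 fibrillar collagens, all of which were tested, Col2a1 and Col24a1 passed brighter in Cy5 and Col11a1 brighter in Cy3. The median ratio of the class was -0.13, and its array medians were -0.02, -0.22 and -0.09. The 6 type IV genes had a median of -0.05, array medians of -0.05, -0.12 and -0.04, and 1 gene brighter in Cy5. The 21 tested genes outside these classes had a median of -0.04, array medians of 0.06, -0.07 and 0.01, and 2 genes brighter in Cy5 beside 1 brighter in Cy3. As shares these are 27.3% of the fibrillar, 16.7% of the type IV and 14.3% of the other collagens, and the difference between classes was not tested. The median size of the ratio was 0.22 for fibrillar, 0.11 for type IV and 0.13 for the other genes. Summed over the fibrillar genes, the channel signal was 49842 to 53246 in Cy5 and 56357 to 59816 in Cy3, without overlap. Between 92.7% and 94.0% of that sum came from Col1a1, Col1a2 and Col3a1, none of which passed, and over the other 8 genes the sums overlapped, at 3591 to 3862 in Cy5 and 3530 to 3888 in Cy3. With median centring the fibrillar sums overlapped too, at 53987 to 58690 in Cy5 and 51173 to 55761 in Cy3. For type IV the sums overlapped in either case, at 14498 to 15512 in Cy5 and 15026 to 15771 in Cy3 after loess. The sign of the class medians also rests on the normalization. Under median centring they were 0.01 for fibrillar, 0.03 for type IV and 0.02 for the other genes, each below the 0.09 of all genes.

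Col2a1 encodes the chain of type II collagen, the main fibril of cartilage. Its log2 channel signal was 9.23, 9.16 and 9.14 in Cy5 on arrays 1 to 3, against 8.71, 8.46 and 8.58 in Cy3. The Cy5 values were higher on every array and did not overlap the Cy3 values. The ratio of 0.60 ± 0.09 is a 1.51-fold difference (limma, adjusted p = 0.00565), the largest in size among the collagens tested. Col24a1, a fibrillar collagen known from developing bone and cornea, read 8.67, 8.46 and 8.56 in Cy5 and 8.21, 8.07 and 8.10 in Cy3. All Cy5 values lay above all Cy3 values, and the arrays gave nearly the same ratio, 0.45, 0.39 and 0.46. The mean of 0.44 ± 0.04 is 1.35-fold (adjusted p = 0.0118).

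Col11a1 encodes a chain of type XI collagen, which nucleates the fibrils that type II collagen extends, and in cartilage the Col2a1 product serves as the partner chain. It went the other way: Cy5 held 9.30, 9.46 and 9.62, against 9.80, 9.94 and 9.96 in Cy3, with no overlap. Cy3 was 1.36-fold brighter, with a log2 ratio of -0.44 ± 0.09 (adjusted p = 0.0128). Col11a2, the other type XI chain, had ratios of -0.02, -0.25 and -0.35, mean -0.21 ± 0.17, and did not pass (adjusted p = 0.121).

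Col1a1 and Col1a2 encode the chains of type I collagen, and Col3a1 encodes type III, a ligand of the receptor Adgrg1 at the pial surface. Col1a1 read 13.30, 13.55 and 13.62 in Cy5 and 13.91, 13.90 and 13.65 in Cy3. The channels did not overlap, but the ratios of -0.61, -0.34 and -0.03 include 1 near 0, on array 3, and the mean of -0.33 ± 0.29 did not pass (adjusted p = 0.0808). Without array 3 it was -0.47 and passed (adjusted p = 0.0366). Col1a2 read 14.82, 14.66 and 14.74 in Cy5 and 14.86, 14.89 and 14.83 in Cy3, a ratio of -0.13 ± 0.10 (adjusted p = 0.248) that became 0.19 under median centring. Col3a1 read 13.06, 13.03 and 13.20 in Cy5 and 13.26, 13.34 and 13.34 in Cy3, again without overlap. Its ratio of -0.22 ± 0.08 did not pass (adjusted p = 0.0725). Col5a2, which lies next to Col3a1 on chromosome 1 and encodes a type V chain that sets fibril width, had the same mean of -0.22 but a wider spread over arrays, at -0.47, -0.22 and 0.03 (adjusted p = 0.164). The remaining fibrillar genes Col5a1, Col5a3 and Col27a1 had ratios of 0.06 ± 0.25, 0.21 ± 0.28 and -0.005 ± 0.14, with both signs among their arrays.

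**Figure D2:**
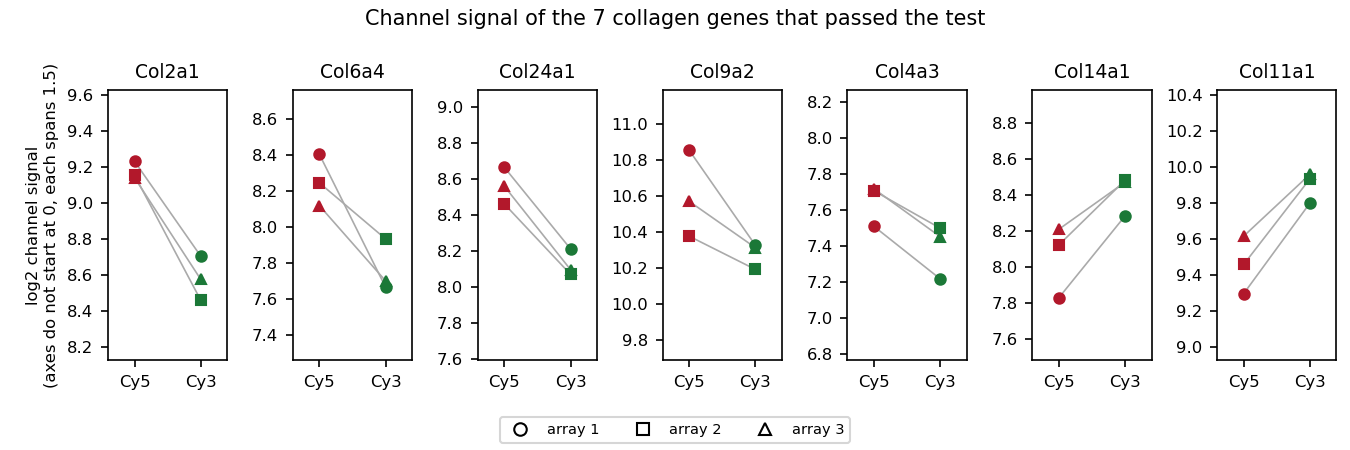
Log2 channel signal of the 7 collagen genes that passed the test, with Cy5 (labelled Brpf1-deficient) left and Cy3 (labelled wild type) right in each panel and a grey line joining the channels of 1 array. Each vertical axis spans 1.5 log2 units and does not start at 0. In no panel do the 3 values of one channel reach those of the other, and the mean gap is widest for Col2a1, at 0.60.

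Of the type IV genes only Col4a3 passed. Its product joins those of Col4a4 and Col4a5 in the network of the kidney filter. Signal was 7.51, 7.71 and 7.72 in Cy5 and 7.22, 7.50 and 7.45 in Cy3, where the probe was well above background on 2 of 3 arrays. The ratio was 0.26 ± 0.04, or 1.19-fold (adjusted p = 0.0439), and it no longer passed without array 1, 2 or 3 (adjusted p = 0.0622, 0.107 and 0.178). Its neighbour and partner chain Col4a4 had -0.03 ± 0.11. Col4a5 had 10.45, 10.23 and 10.30 in Cy5 and 10.53, 10.49 and 10.49 in Cy3. Those values did not overlap, but the ratio of -0.18 ± 0.09 did not pass (adjusted p = 0.117). Col4a1 and Col4a2, which make the chains found in nearly every basement membrane, had ratios of -0.06 ± 0.05 and 0.01 ± 0.07 (adjusted p = 0.523 and 0.937). With a median-centred scale the Col4a1 ratio was 0.05. Col18a1, the basement membrane multiplexin from which endostatin is cut, had ratios of -0.29, -0.04 and 0.34. The 3 arrays thus disagreed in sign, around a mean of 0.0034 ± 0.32 (adjusted p = 0.986).

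Of the 9 FACIT genes, Col9a2 passed brighter in Cy5 and Col14a1 brighter in Cy3. Col9a2 encodes a chain of type IX collagen, which decorates type II fibrils. Its signal was 10.86, 10.38 and 10.57 in Cy5, against 10.33, 10.19 and 10.32 in Cy3, without overlap. The ratio of 0.32 ± 0.18 is 1.25-fold (adjusted p = 0.0448), and it did not pass without array 1 or without array 3 (adjusted p = 0.0737 and 0.0956). The other type IX chains stood at -0.04 ± 0.03 for Col9a1 and -0.13 ± 0.09 for Col9a3, and neither passed. Col14a1, which binds the surface of type I fibrils, read 7.83, 8.12 and 8.21 in Cy5 and 8.29, 8.48 and 8.47 in Cy3. Cy3 was higher on each array and 1.28-fold brighter, a log2 ratio of -0.36 ± 0.10 (adjusted p = 0.0226). Its second probe had the opposite sign, 0.12 ± 0.20. Col12a1 and Col16a1 had ratios of -0.16 ± 0.19 and -0.20 ± 0.25. Col19a1, Col20a1 and Col22a1 lay between -0.08 and 0.06, each with both signs among the arrays.

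Type VI collagen is built from the products of Col6a1, Col6a2 and a further chain, which can come from Col6a3 or, in the mouse, from Col6a4, Col6a5 or Col6a6. Col6a4 passed, with 8.40, 8.24 and 8.12 in Cy5 and 7.66, 7.93 and 7.70 in Cy3. The channels did not overlap, and array 1 had the widest gap. The ratio of 0.49 ± 0.22 is 1.40-fold (adjusted p = 0.0205). Its neighbour Col6a5 had -0.01 ± 0.08, and Col6a3 had -0.05 ± 0.09. Col6a2 read 8.50, 8.03 and 8.45 in Cy5 and 8.03, 8.09 and 8.09 in Cy3. Those channels overlapped on the reading of array 2, and the ratio of 0.26 ± 0.28 did not pass (adjusted p = 0.131). Its neighbour Col6a1 had 0.10 ± 0.20, also with array 2 below 0.

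The remaining classes had 0 genes past the threshold in limma, among 6 tested. At an unadjusted p under 0.05 there were 2 genes brighter in Cy5 and 1 brighter in Cy3, namely Col8a1, Col26a1 and Col23a1. Over all 23232 genes there were 4030 and 4518. Col8a1, a short-chain collagen of vessel walls, had 7.71, 8.20 and 8.38 in Cy5 and 7.56, 8.00 and 8.06 in Cy3. Each array was brighter in Cy5, although the arrays differed more from each other than the channels did, and the ratio was 0.23 ± 0.09 (adjusted p = 0.0678). Col8a2 had -0.15 ± 0.18. Col26a1 stood close to the threshold, with 11.98, 11.88 and 12.08 in Cy5 and 11.72, 11.72 and 11.54 in Cy3. Its channels did not overlap, its second probe gave 0.34 ± 0.25 beside 0.32 ± 0.20, and it passed in 7 of 15 alternative analyses (adjusted p = 0.0512 here). Col23a1, which spans the membrane, had -0.20 ± 0.08 (adjusted p = 0.084). Col25a1, a membrane collagen of neurons, had -0.11 ± 0.12, and Col7a1 of the anchoring fibrils had -0.07 ± 0.21.

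Several genes carried more than 1 probe, which gives a further reading of the same gene. For 8 genes more than 1 probe passed the filter, and in 5 of them the probes differed in sign. These were Col4a6, Col9a1, Col14a1, Col23a1 and Col25a1. Col4a6 had -0.16 ± 0.08 on the brightest probe, which stands for the gene, and 0.29 ± 0.16 on the other. Both probes held their sign on all 3 arrays. Col25a1 ranged over 4 probes between -0.21 and 0.17. The probe at -0.21 was not well above background on any array in Cy5 and was not called (limma, adjusted p = 0.0894). Col9a1 had -0.04 and 0.03, and the 3 probes of Col23a1 reached from -0.20 to 0.0023. The probes of Col16a1, Col18a1 and Col26a1 had 1 sign each. Tested probe by probe, 7 of the 49 collagen probes that passed the filter were called, or 14.3%, against 16.8% of all probes. They were 5 brighter in Cy5, against 7.48% of all probes, and 2 brighter in Cy3, against 9.37%.

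**Figure D3:**
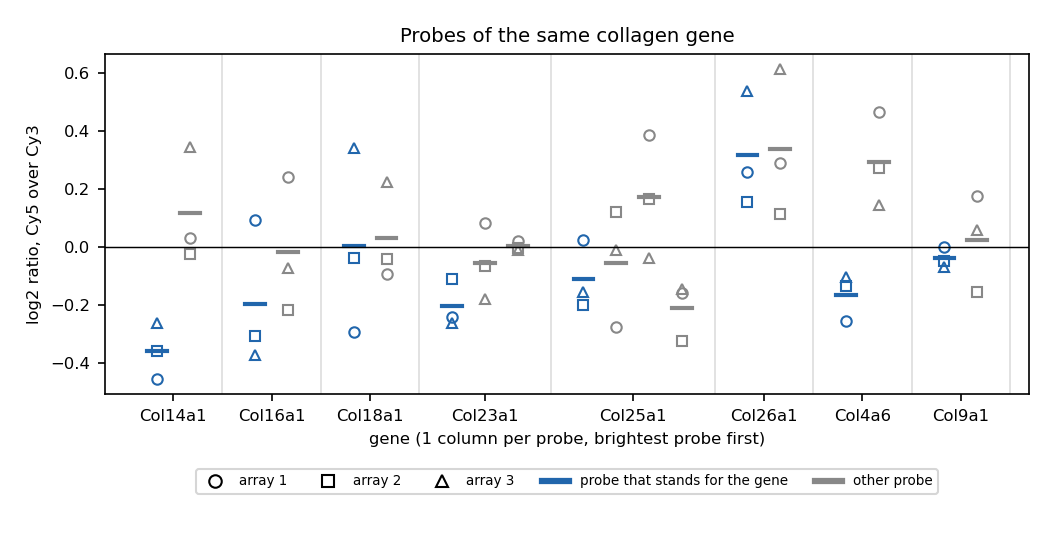
Log2 ratio of Cy5 over Cy3 on the vertical axis for the 8 collagen genes with more than 1 probe above the filter, with 1 column per probe, 1 symbol per array and a bar at the mean. Blue bars mark the brightest probe, which stands for the gene, and grey bars the others. The bars of Col4a6 and Col14a1 lie on opposite sides of 0, while both bars of Col26a1 lie near 0.3.

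The stretch before the start site was read from RefSeq for the genes that passed, to show what sequence lies next to genes of each direction. Sequences are those of build GRCm38.p6, 5′ to 3′ on the gene's own strand, and 4 of the 7 genes have an entry. Col2a1, Col4a3 and Col14a1 are named only. Capitals mark a CCAAT box (CCAAT, or ATTGG on the other strand) and a GC box (GGGCGG, or CCGCCC on the other strand). For Col11a1 and Col6a4 the printed stretch stops where a transcript model of the gene begins, and capitals mark only boxes that lie whole in the printed bases. Col24a1 (chr3:145292222-145292471, plus strand), Col9a2 (chr4:121039316-121039565, plus strand) and Col6a4 (chr9:106096829-106096941, minus strand) were brighter in Cy5, and Col11a1 (chr3:114030290-114030478, plus strand) was brighter in Cy3.
Col24a1: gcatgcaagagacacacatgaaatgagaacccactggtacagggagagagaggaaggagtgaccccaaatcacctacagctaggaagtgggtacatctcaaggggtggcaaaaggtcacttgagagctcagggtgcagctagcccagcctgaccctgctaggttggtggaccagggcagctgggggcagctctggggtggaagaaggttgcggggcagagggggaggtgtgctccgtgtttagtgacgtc
Col9a2: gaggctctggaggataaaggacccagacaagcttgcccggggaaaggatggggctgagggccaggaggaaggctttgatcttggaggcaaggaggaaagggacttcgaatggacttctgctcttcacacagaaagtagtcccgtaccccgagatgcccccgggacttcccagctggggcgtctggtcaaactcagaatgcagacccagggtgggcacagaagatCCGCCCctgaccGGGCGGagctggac
Col6a4: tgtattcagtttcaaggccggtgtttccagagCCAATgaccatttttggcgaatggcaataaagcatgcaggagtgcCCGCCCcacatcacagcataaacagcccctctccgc
Col11a1: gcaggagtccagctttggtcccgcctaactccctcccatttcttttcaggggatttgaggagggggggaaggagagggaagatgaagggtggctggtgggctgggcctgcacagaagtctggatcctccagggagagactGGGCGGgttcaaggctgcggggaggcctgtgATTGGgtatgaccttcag

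In the windows of 250 bases, Col24a1 held neither box and Col9a2 held 2 GC boxes. Col6a4 and Col11a1, which went in opposite directions, each held 1 CCAAT box and 2 GC boxes. TATAA, searched on both strands, was in none of these 4 windows. Over the 38 windows of the 35 collagen genes with an entry, 34.2% held a CCAAT box, against 33.8% of all 32851 windows. A GC box was in 57.9% of the collagen windows, against 32.7% of all windows. TATAA was in 18.4%, against 22.8%. These are letter matches, and a CCAAT box and a GC box can share letters where they adjoin. The 4 windows held 55.2% to 62.4% G or C, against a median of 52.4% over all windows. The differences in these shares were not tested, and base composition was not taken into account.

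Collagen chains pass through a line of enzymes and chaperones, and these genes were read beside them. Of 20 genes for folding and modification, 2 passed, both brighter in Cy5, or 10% against 17.1% of all genes. Plod1, a lysyl hydroxylase, had 0.38 ± 0.09 (adjusted p = 0.0191) with a second probe at 0.46, and Crtap, a partner of the prolyl hydroxylase P3h1, had 0.26 ± 0.09 (adjusted p = 0.049). The median of this list was -0.05, like that of the collagens.

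Of 11 tested genes for processing and crosslinking, 2 passed brighter in Cy5 and 2 brighter in Cy3, or 36.4% against 17.1% of all genes. Loxl2, a lysyl oxidase that crosslinks collagens, read 10.92, 10.79 and 10.69 in Cy5 and 9.77, 9.74 and 9.77 in Cy3. The channels were more than 0.9 log2 units apart on every array, and the ratio of 1.04 ± 0.12 is 2.06-fold (adjusted p = 0.000677), larger in size than that of any collagen tested. The other probes of Loxl2 had the same sign at 0.27 and 0.38. Loxl1 had 0.25 ± 0.07 (adjusted p = 0.0484). Lox itself had -0.26 ± 0.05 (adjusted p = 0.0418) and Adamts2, which removes the amino-terminal propeptide, had -0.39 ± 0.26 (adjusted p = 0.0432). The second probes of Lox and Adamts2 had the opposite sign, 0.05 and 0.11. Neither gene passed with median centring (adjusted p = 0.098 and 0.0889) or with the scanner's processed signals (adjusted p = 0.0611 and 0.097). 

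None of the 9 tested collagen receptors passed in limma, and 3 had an unadjusted p under 0.05, all brighter in Cy3. Over all 23232 genes, 4030 brighter in Cy5 and 4518 brighter in Cy3 were under that unadjusted p. The closest was the integrin Itga10 at -0.30 ± 0.18 (adjusted p = 0.0557). Ddr2, a receptor kinase for fibrillar collagen, had -0.20 ± 0.10, and Adgrg1, the receptor of type III collagen, had -0.17 ± 0.07. Of 15 laminins and other basement membrane genes, 1 passed, Lama5 at -0.24 ± 0.02 (adjusted p = 0.0488), and it did not pass with the scanner's processed signals, with median centring, or with each intensity bin centred. Of 9 tested fibril-binding proteoglycans, 1 passed, Bgn (biglycan) at 0.37 ± 0.14 (adjusted p = 0.0263). Of 9 tested degradation genes, 1 passed, the gelatinase Mmp2, with ratios of 0.46, 0.40 and 0.46 and a mean of 0.44 ± 0.04 (adjusted p = 0.0115). As shares, 0% of the receptors, 6.67% of the basement membrane list and 11.1% each of the proteoglycans and degradation genes were called. Each share is below the 17.1% of all genes. With processed signals Crtap, Loxl1 and Bgn did not pass either, while Plod1, Loxl2 and Mmp2 did.

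**Figure D4:**
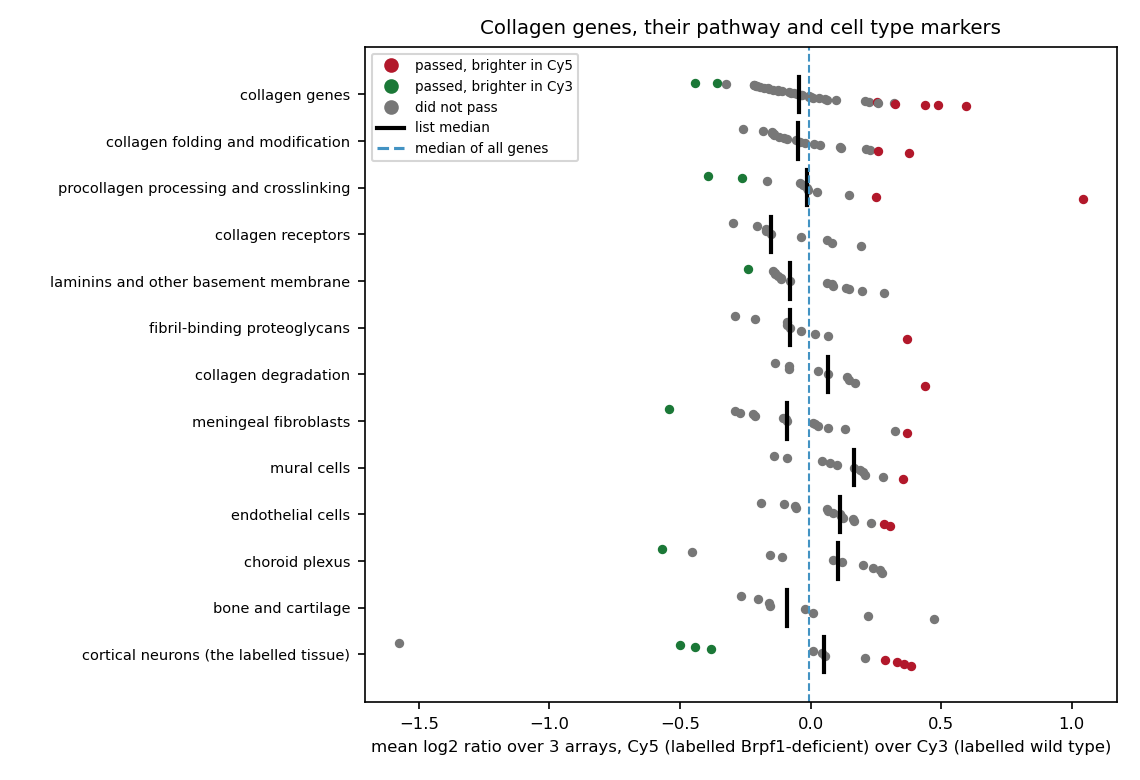
Mean log2 ratio of Cy5 (labelled Brpf1-deficient) over Cy3 (labelled wild type) over 3 arrays on the horizontal axis, with 1 point per tested gene and 1 row per gene list, a black bar at the list median and a dashed line at the median of all genes. Red and green points passed the test. Loxl2 at 1.04 lies farthest to the right, and the medians of all lists lie between -0.15 and 0.17.

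Dorsal cortex samples can carry meninges, vessels, choroid plexus and, from the skull, bone and cartilage, all of which make collagens. In bulk RNA, fewer cells of a type and less RNA per cell cannot be told apart. All 15 meningeal fibroblast markers were well above background in both channels on all arrays. Of these, Bgn, Dcn, Fmod, Lum and Ogn also stand on the proteoglycan list. The median ratio of all 15 was -0.09, with array medians of -0.04, -0.11 and 0.05, and Foxd1 passed brighter in Cy3 and Bgn brighter in Cy5. Their summed signal went the other way from the median, at 168887 to 194348 in Cy5 and 151509 to 162777 in Cy3. The largest part of these sums came from Ptgds, with a mean log2 signal of 16.75 in Cy5 and 16.43 in Cy3. Its ratio of 0.32 ± 0.21 did not pass (limma, adjusted p = 0.0541), so the sums mostly repeat 1 gene. Mural cell markers, 11 tested, had a median of 0.17 and sums of 32023 to 33591 in Cy5 and 28211 to 29525 in Cy3, and Acta2 passed. The 15 endothelial markers had a median of 0.11 and sums of 76437 to 83461 in Cy5 and 68950 to 70531 in Cy3, and Cldn5 and Tie1 passed. Both vascular sums were thus higher in Cy5 without overlap, also with median centring, processed signals and centred bins. Cldn5 gave the largest part of the endothelial sums, with a mean log2 signal of 15.22 in Cy5 and 14.91 in Cy3. The largest parts of the mural sums came from Vtn, at 13.77 and 13.58, and Rgs5, at 13.05 and 12.78. Neither passed (limma, adjusted p = 0.103 and 0.0838). Of the 15 endothelial ratios, 11 lay above 0 and 4 below. Called were 13.3% of the meningeal, 9.09% of the mural and 13.3% of the endothelial markers, against 17.1% of all genes. The meningeal sums overlapped with processed signals and with centred bins.

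For bone and cartilage, 8 of 12 markers were tested, with a median of -0.09 and sums of 8273 to 11117 in Cy5 and 7155 to 9793 in Cy3. The cartilage matrilins Matn1 and Matn3 and the bone genes Bglap and Sp7 were not above the filter. None of the 8 passed in limma, and 5 of the 8 ratios lay below 0. An unadjusted p under 0.05 was found for 2 brighter in Cy5 and 1 brighter in Cy3, against 4030 and 4518 of all 23232 genes. The bone regulator Runx2 had -0.27 ± 0.18 and Ibsp, a bone sialoprotein, had -0.16 ± 0.04. Runx2, the 1 gene brighter in Cy3 at that unadjusted p, was well above background on 3 arrays in Cy3 but on 0 in Cy5. It thus passed the filter only through the channel where it is higher, and its ratio rests on a Cy5 signal near the floor. Spp1 (osteopontin) had 0.47 ± 0.49 and Acan, the cartilage proteoglycan, had 0.22 ± 0.16. Choroid plexus markers, all 10 tested, differed between arrays, with medians of -0.26, 0.52 and 0.10 and sums of 6933 to 76628 in Cy5 and 20320 to 71733 in Cy3. Of these only Prlr passed, or 10% against 17.1% of all genes. It was brighter in Cy3 at -0.57 ± 0.38 (adjusted p = 0.0337), and its second probe had -0.03. Of the 12 cortical neuron markers, 11 were well above background on all arrays in Cy5 and 12 in Cy3, with 4 passing brighter in Cy5 and 3 brighter in Cy3, or 58.3% against 17.1% of all genes. Slc17a7 had 0.36 ± 0.15 and Bcl11b 0.39 ± 0.22, while Dcx had -0.50 ± 0.11 and Snap25 -0.44 ± 0.24. Dcx, Snap25 and Neurod6, the 3 brighter in Cy3, did not pass under median centring, at -0.05, -0.04 and -0.04. Stmn2, at 0.29, was 0.02 with centred bins. Emx1, named after its values were seen, had ratios of 0.65, -2.72 and -2.65, so array 1 stood apart. With processed signals Acta2, Cldn5, Tie1 and Prlr did not pass. Of the neuron markers that passed, Slc17a7, Bcl11b, Tbr1, Stmn2, Snap25 and Neurod6 did not pass with processed signals either. Only Dcx did (limma, adjusted p = 0.0426). The part of these cell types in the collagen ratios was not tested.

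The authors' deposited table lists 43 collagen probes, of which 31 passed the filter used here, and all 31 had the sign opposite to the ratio given here. In the authors' deposited table Col2a1 had a log2 fold change of -0.76, Col24a1 of -0.64 and Col6a4 of -0.81. In the same authors' deposited table Col11a1 had 0.48 and Col14a1 0.48. The lowest adjusted p of a collagen in the authors' deposited table was 0.24, so 0 of the 43 probes were under 0.05 there, and 12 had an unadjusted p under 0.05. How many of all 40000 spots there were under that unadjusted p was not counted, so the 12 have no background share here. The lowest adjusted p of any spot in that table was 0.159 (limma), so no gene passed there, collagen or other.

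Most of the genes that passed kept their call in most of the alternatives. With the scanner's processed signals 3 of the 7 kept it, and with the channels of an array unpaired 2 did. Col2a1 and Col24a1 stayed under the threshold in 15 of 15 alternatives, Col11a1 in 14 of 15, Col6a4 in 13 of 15 and Col14a1 in 12 of 15. Col9a2 stayed under it in 8 of 15 and Col4a3 in 7 of 14. Col14a1 lost its call when its probes were averaged, at -0.12 (adjusted p = 0.29).

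**Figure D5:**
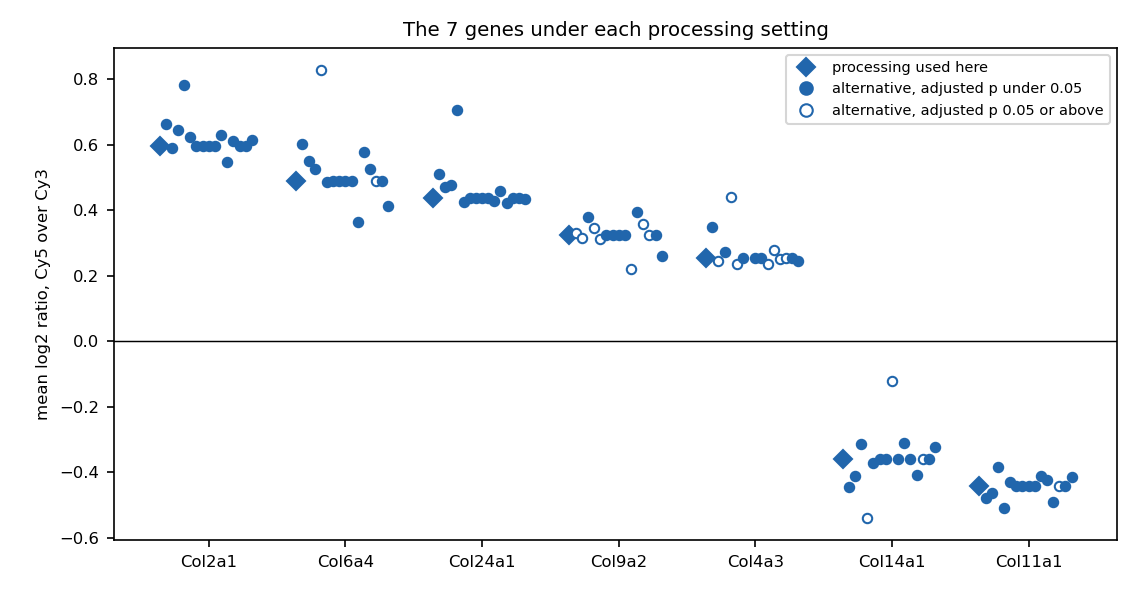
Mean log2 ratio of Cy5 over Cy3 on the vertical axis for the 7 collagen genes that passed, with a diamond for the processing used here, filled circles for alternatives with an adjusted p under 0.05 and open circles for the others. All symbols of a gene lie on 1 side of 0. Col2a1 and Col24a1 have filled circles throughout, and Col9a2 and Col4a3 have 7 open circles each.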

How the data were processed

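RNA (350 ng) from each pup was amplified once, per the labels' protocols. In the deposited scanner files stand median spot and background intensity per colour, taken by Agilent Feature Extraction 10.7.3.1 with a grid of build mm9, per the file headers. The log10 ratio in the deposited files is that of the processed red over green intensity. The authors' deposited table gives a log2 fold change, t and log-odds scores and a p-value, raw and adjusted, for 40000 of 62976 spots, made with limma per the submitters' processing notes. Its normalization and direction are not given in the sources.

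Medians were background-corrected with normexp (offset 50) and normalized by loess with controls at weight 0 in limma 3.58.1 (R 4.3.3), and 4 to 7 outlier spots per array were left out. The arrays correlated at 0.566 to 0.703 and share 1 slide and 1 scan. Spots of a probe were averaged, and 32983 probes were kept that stood well above background on 2 or more arrays in either channel. The brightest probe stood for a gene. The log2 ratio of each gene was tested against 0 in an intercept-only limma fit, two-sided, with Benjamini-Hochberg adjustment over 23232 genes and a threshold of 0.05. The pairing is that of the 2 channels of an array. Channel values are after loess and Aquantile and are open to dye bias. Values after ± are SDs over 3 arrays, and the number of arrays limits the precision. The fit was tested on simulated data.

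Of the 67 collagen probes, 63 were named through RefSeq accessions (GRCm38.p6, used for names, neighbours and promoters) and 4 through the authors' deposited table, which depends in part on the outcome. The members and lists were chosen with earlier results of these data known. Text names genes past the threshold, the 2 largest ratios of each class, genes whose probes differ in sign, and up to 4 genes per list by adjusted p. The other collagens are given so that every member is accounted for, and a few further genes are named for context.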

Additional observations from a re-analysis of the deposited data

How the results depend on the processing

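With 3 arrays, 1 dye orientation and a median signal that differed between channels, small ratios depend on the normalization. No collagen that passed changed sign under any alternative. The 5 collagens brighter in Cy5 were 3 without background correction, 2 with the scanner's processed signals and 2 with no replicate block, that is, with the channels of an array unpaired. The 2 brighter in Cy3 were 1 with processed signals, 1 with the mean of a gene's probes, 6 with array weights and 0 with no replicate block (limma; 5 at an unadjusted p under 0.05). Leaving out each array in turn gave 3 to 6 brighter in Cy5 and 2 to 4 brighter in Cy3. Without array 1 there were 3 and 4, and without array 3 there were 3 and 3. Over all genes, the 1852 brighter in Cy5 were 4466 with median centring, 575 with processed signals, 505 with no replicate block, 2790 with array weights and 761 to 1620 with an array left out. The 2129 brighter in Cy3 were 891 with median centring, 530 with processed signals, 367 with no replicate block and 1099 to 2181 with an array left out, where array 3 gave the lowest of both. Median centring thus moved the share of Cy5 among calls to 83.4%, beside 46.5%, and the collagen median to 0.015, beside -0.05, while that of all genes was 0.09, beside -0.01. The scalings of class and marker sums, and the fibrillar sum without Col1a1, Col1a2 and Col3a1, were chosen after seeing the data. The collagen median was -0.08 to -0.02 with an array left out. Where 7 collagens were called here, the authors' deposited table had 0 of its 43 collagen probes under an adjusted p of 0.05. An unadjusted p under 0.05 was found for 12 of the 43, and the share over all spots of that table was not counted. No other spot of that table was under an adjusted p of 0.05 either, and the lowest was 0.159 (limma). The cause of these shifts was not tested. Among single collagen genes, 504 comparisons kept direction and side of the threshold, 20 lost the call, 17 gained it, and 25, in 16 genes and with no call on either side, changed sign.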

Other observations

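Several proteins that are not named as collagens carry a collagen-like stretch, among them the C1q chains, the C1q-like synaptic proteins and Colq, the collagen tail of acetylcholinesterase. This list was chosen after values were seen, so its counts are a description only. Of 31 such genes on the arrays, 27 were tested, 8 passed brighter in Cy5 and 1 brighter in Cy3, with a median ratio of 0.12. That is 33.3% called, against 17.1% of all genes, with 29.6% against 7.97% in Cy5 and 3.7% against 9.16% in Cy3. The lowest adjusted p-values were those of C1ql2 at 0.44 ± 0.16, C1qtnf2 at 0.35 ± 0.03, C1qtnf12 at 0.49 ± 0.23 and Colq at 0.44 ± 0.21. C1ql2 was well above background on 3 arrays in Cy5 but on 1 in Cy3, so its Cy3 signal was near the floor. Colq was well above background on 2 arrays in each channel, and its channels overlapped. The gene brighter in Cy3 was C1ql3, at -0.50 ± 0.32.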
